A study of Mus musculus with 2 samples.

Results

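The cell division genes read by array C of Affymetrix's murine U74 set were compared between D16 and D351, a pair of mouse mesoangioblast clones with 1 array each. Members were genes of probe sets with 1 annotated gene whose symbol belongs to the cyclins, the cyclin-dependent kinases (CDKs), the numbered Cdc genes other than Cdc42, the Cenp, Mcm, Orc, Pold, Pole, Prim, Rfc, Rad, Xrcc, Ercc, Fanc, Msh, Bub, Aurk, Plk, Anapc, Ncap and E2f families, and 5 genes listed singly, Dut, Pclaf, Stil, Ube2s and Zwint. The list was drawn up with earlier results of these data known, and all 5 of the singly listed genes differed by 2-fold or more. This gave 76 of the 5928 named genes, read by 112 of 11868 probe sets. No member came from the Bub, Pole or Rfc families. Mesoangioblasts are vessel-associated progenitors of mesoderm. Both clones came from explanted dorsal aorta of C57BL6 embryos at embryonic day 9.5, were cloned by limiting dilution over mitomycin C-treated embryonic fibroblasts and were then expanded on gelatin. The labels give no treatment, genotype or time that separates them, so each group is 1 clone, and its array stands for that culture alone. Without replicate arrays there is no test of any difference below, and precision is limited by having so few arrays.

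A dividing cell passes from G1, in which D-type and E-type cyclins with their CDKs release E2F factors from the retinoblastoma proteins, into S phase. Origins of replication are licensed by the origin recognition complex and the Mcm helicase, and DNA is then copied by polymerases held on the template by the sliding clamp PCNA. In mitosis, Aurora and Polo kinases, kinetochores built on centromere proteins, condensin and the anaphase-promoting complex part the chromosomes. Many genes of S phase are activated through E2F sites, and many of G2 and mitosis through CCAAT boxes and the cell cycle homology region (CHR) near the start of the gene. Several cyclins and CDKs with the same family names serve transcription, splicing or cilia instead.

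Because genes of this kind often share such promoters, the start regions of the members were searched on both strands for 3 motifs. These were the E2F words TTTCCCGC, TTTCGCGC, TTTGCCGC and TTTGGCGC, the CHR words TTTGAA and TTCGAA, and CCAAT. RefSeq promoter windows (GRCm38.p6, 250 bases before to 50 after a start) were found for 63 of the 76 genes, as 71 windows. An E2F word was present in 21.1% of the members' windows and in 2.26% of all 32851 windows. CCAAT was present in 50.7% against 37.4%, and a CHR word in 16.9% against 19.2%. Upstream bases of 5 genes are shown 5′ to 3′, with every match that lies wholly within them in capitals: 3 that were higher in D16 (Orc3, Cenpn, Stil), Pclaf, which was higher in D351, and Mcm5, which was nearly equal.

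Orc3 (chr4:34614943-34615192, minus strand): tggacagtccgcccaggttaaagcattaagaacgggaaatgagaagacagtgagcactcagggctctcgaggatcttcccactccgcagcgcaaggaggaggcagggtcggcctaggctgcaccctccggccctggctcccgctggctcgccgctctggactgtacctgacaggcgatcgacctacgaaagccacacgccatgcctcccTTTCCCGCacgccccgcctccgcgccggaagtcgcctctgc
Cenpn (chr8:116921490-116921739, plus strand): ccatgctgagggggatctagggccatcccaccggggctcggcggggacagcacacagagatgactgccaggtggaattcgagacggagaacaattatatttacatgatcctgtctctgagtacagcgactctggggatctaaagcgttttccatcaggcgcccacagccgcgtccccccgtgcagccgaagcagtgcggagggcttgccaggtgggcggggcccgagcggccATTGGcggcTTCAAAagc
Stil (chr4:114999868-115000117, plus strand): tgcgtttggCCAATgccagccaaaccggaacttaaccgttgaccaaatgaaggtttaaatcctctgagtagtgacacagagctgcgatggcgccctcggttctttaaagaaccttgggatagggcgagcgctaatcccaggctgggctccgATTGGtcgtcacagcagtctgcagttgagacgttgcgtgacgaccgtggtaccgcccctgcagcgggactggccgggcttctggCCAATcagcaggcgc
Pclaf (chr9:65890073-65890322, plus strand): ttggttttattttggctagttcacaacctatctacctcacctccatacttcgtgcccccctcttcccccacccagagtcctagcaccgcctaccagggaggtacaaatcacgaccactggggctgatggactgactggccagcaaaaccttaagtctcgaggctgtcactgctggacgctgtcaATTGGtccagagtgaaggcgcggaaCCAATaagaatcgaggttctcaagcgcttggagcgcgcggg
Mcm5 (chr8:75109259-75109508, plus strand): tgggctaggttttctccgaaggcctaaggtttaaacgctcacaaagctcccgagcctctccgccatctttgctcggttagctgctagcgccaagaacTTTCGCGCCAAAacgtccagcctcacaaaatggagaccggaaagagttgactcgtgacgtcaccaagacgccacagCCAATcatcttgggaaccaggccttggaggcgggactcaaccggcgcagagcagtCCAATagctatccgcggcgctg

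In Orc3 the capitals mark an E2F word, in Cenpn a CCAAT box and a CHR word, in Stil and Pclaf CCAAT boxes, and in Mcm5 a pair of E2F words that overlap each other, followed by CCAAT boxes. In Pold1, Mcm8 and Pclaf the E2F word lay across the start (Pclaf) or after it (Pold1, Mcm8) and is shown with its flanks, with only the E2F word in capitals.

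Pold1 (chr7:44548766-44548782, minus strand): cttgtgGCGGGAAAagc
Mcm8 (chr2:132816174-132816190, plus strand): atagacGCGCCAAAaaa
Pclaf (chr9:65890312-65890331, plus strand): gagcgcGCGGGAAAgagacc

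E2F words occurred in genes on both sides of the comparison. An E2F word was found in 4 of the 11 genes with a window that were at least 2-fold higher in D16 (Anapc15, Mcm8, Orc3 and Pold1), in 1 of 9 that were at least 2-fold higher in D351 (Pclaf) and in 8 of 32 measured genes under 2-fold. The windows of Dut, Cdk13 and Fancl, higher in D16, and of Cdk20 and Rad18, higher in D351, held none of the 3 motifs. This says only that these letters are not in those windows. These shares were not tested, and a match is a run of letters, not a bound site.

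The deposited values are linear intensities, 1 for each probe set, and each gene is represented below by its brightest probe set. A value at or below 6.4, the median of all values of both arrays, is called dim. A gene that exceeded this floor in either clone, or in both, is called measured. Dim values were set to the floor, so that a gene dim in 1 clone has only a lower bound, written "at least". Ratios are log2, D351 minus D16, so that negative values lie towards D16. The 19 negative control probe sets, for transcripts of bacteria and yeast, reached 11.2, so values between 6.4 and 11.2 lie within the range of background. For 409 genes with more than 1 probe set above the floor on both arrays, ratios of the same gene varied with an SD of 0.67 log2 per probe set. The hybridization controls, RNAs added in fixed amounts, were 1.59-fold brighter in D16 (9 probe sets, median log2 ratio -0.67), while the mean of all probe sets, leaving out 2% at each end, was 20.0 on both arrays. Directions below are therefore relative to intensities with equal trimmed means and are not absolute. A letter such as f, i, r or s before the ending of a probe set's identifier, called a mark here, means that the probes were chosen under looser rules or may match several transcripts.

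Genes of replication and of mitosis lay towards D16 relative to all genes on the array. With the floor raised to 20.7, the upper quartile of the values, the replication median was near that of all genes (-0.031 against -0.0053). Even so, 4 of the 11 replication genes then measured passed 2-fold towards D16 and 1 towards D351. Of all genes measured with that floor, 8.33% and 7.91% did. With the floor as first set, the remaining cyclins, CDKs and Cdc genes had a median near that of all genes. Of the 15 measured, 4 (26.7%) passed 2-fold towards D351 and 1 (6.67%) towards D16, against 10.3% and 10.2% of all genes. Scaled to the hybridization controls, genes of replication and mitosis had positive medians but still lay below all genes, as given below. Of the 76 genes, 61 were measured, 51 of them in both clones. Of these 61, 23 (37.7%) differed by 2-fold or more, where 20.5% of all 3934 measured named genes did. In 14 (23.0%) the D16 value was the higher, against a background of 10.2%, and in 9 (14.8%) the D351 value, against 10.3%. Without the 5 singly listed genes, 12 of 56 (21.4%) were higher in D16 and 6 (10.7%) in D351, so the share towards D351 was then close to the background. The largest differences towards D16 were those of Stil, cyclin D1 (Ccnd1), Dut, Cenpn and Pold1, between 4.40-fold and 7.66-fold. The largest of all was Pclaf, a partner of PCNA, at least 22.9-fold higher in D351. The median log2 ratio was -0.16 over the measured members and -0.022 over all measured genes, and 36 of 61 members (59.0%) lay below 0, against 51.0% of all measured genes.

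**Figure D1:**
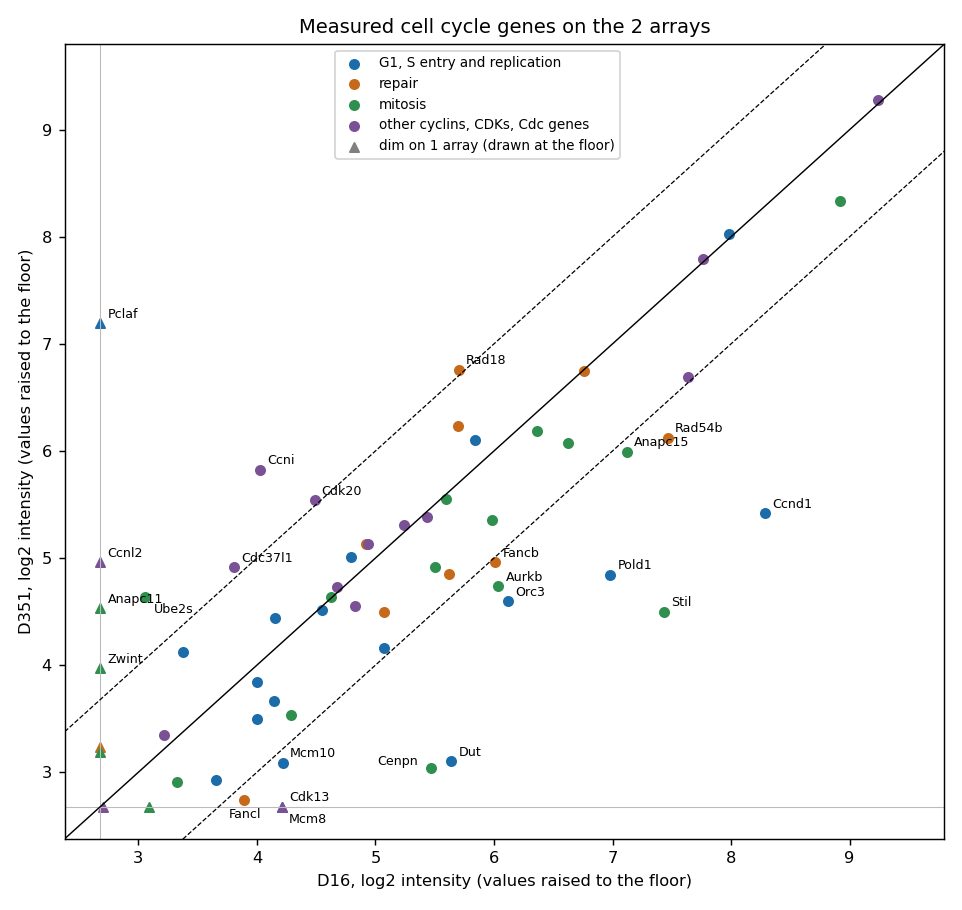
Log2 intensity of the 61 measured genes in D16 (x axis) and D351 (y axis), coloured by role, 1 point per gene. The solid line marks equal values, the dashed lines 2-fold, the grey lines the floor of 6.4, and triangles are genes dim in 1 clone, drawn at the floor. Ccnd1, Stil, Pold1, Dut and Cenpn lie far below the line of equality and Pclaf far above it.

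By role, 18 genes of G1, S phase entry and replication were measured, of which 6 passed 2-fold towards D16 and 1 towards D351, with a median of -0.49. Of 18 measured genes of mitosis, 4 were higher in D16 and 3 in D351, with a median of -0.48, and 13 of the 18 lay below 0. Of 10 measured repair genes, 3 were higher in D16 and 1 in D351, with a median of -0.30. The 15 other cyclins, CDKs and Cdc genes had 1 higher in D16, 4 in D351 and a median of 0.055, near that of all genes, and the 4 became 2 with a pseudocount or with the floor at 20.7. The background is 10.2% towards D16 and 10.3% towards D351. When the hybridization controls set the scale, the medians of all 4 role groups were positive (0.18, 0.11, 0.38 and 0.74, in the order given), while the median of all measured genes moved from -0.022 to 0.59. Relative to that median, replication then stood at -0.40 and mitosis at -0.48. With the floor at 20.7 the replication median was -0.031, with 6 of 11 genes below 0, and that of mitosis -0.59. With means over probe sets the median of mitosis was -0.27.

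**Figure D2:**
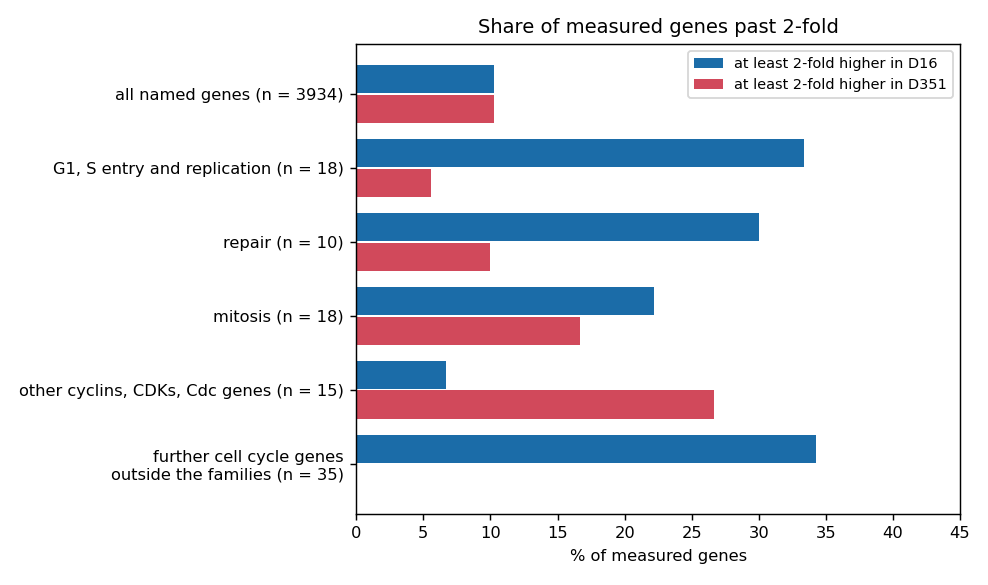
Share of measured genes at least 2-fold higher in D16 (blue) and in D351 (red), in percent, for all named genes, the 4 role groups and the further cell cycle genes outside the chosen families, with the number measured beside each name. Towards D16 the share was 10.2% for all genes and 33.3%, 30.0% and 22.2% for replication, repair and mitosis, and for the other cyclins and CDKs it was 6.67%. Towards D351 the shares were, in the same order, 10.3%, 5.56%, 10%, 16.7% and 26.7%.

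Among the genes that drive entry to S phase, Ccnd1, the D-type cyclin that activates Cdk4 and Cdk6 in G1, gave 313 in D16 and 42.7 in D351. The D16 value was 7.32-fold higher, which placed Ccnd1 at rank 21 of 3934 measured genes towards D16, with bounds taken at their value. The related cyclin gene Ccnd3 lay the other way, with 10.4 in D16 and 17.4 in D351, under 2-fold. The E-type cyclins activate Cdk2 at the start of S phase. Ccne1 read 12.6 in D16 and 7.6 in D351, and Ccne2 was nearly equal at 23.4 and 22.9. Cdc25a, the phosphatase that removes inhibitory phosphate from Cdk2, read 17.8 in D16 and 21.7 in D351. E2f8, a repressor of the E2F family, was dim in both clones. Ccnd1 was thus the only one of the 5 measured genes of this step to pass 2-fold.

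Origin and helicase genes lay mostly towards D16. Of 9 measured, 7 (77.8%) were below 0, and 3 of these (33.3% of the 9) passed 2-fold. Of all measured genes, 51.0% were below 0 and 10.2% passed 2-fold towards D16. Orc3, a subunit of the origin recognition complex, gave 69.4 in D16 and 24.2 in D351, 2.87-fold apart. Its second probe set read 11.4 in D16 and 7.1 in D351, the same direction but under 2-fold and within or near the range of background. Orc4, of the same complex, read 57.2 in D16 and 68.5 in D351, and Orc6 was dim in both. The subunits of this complex on the array therefore did not move as a block.

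Mcm8, a helicase subunit that acts in recombination rather than in licensing, gave 18.5 in D16 and was dim in D351 at 1.8, at least 2.89-fold higher in D16. Mcm10, which helps to activate the loaded helicase, read 18.6 in D16 and 8.5 in D351, 2.19-fold apart. Its second probe set gave 11.7 in D16 and 10.1 in D351, and over both probe sets Mcm10 no longer passed 2-fold. Of the replicative helicase itself, Cdc45 was just under 2-fold, at 33.6 in D16 and 17.9 in D351. Mcm6 read 17.7 in D16 and 12.7 in D351. Mcm5, a subunit of the same ring as Mcm6, was close to equal at 252 and 261. Mcm9, the partner of Mcm8, read 16 in D16 and 11.3 in D351, and the Mcm-binding protein gene Mcmbp 16 and 14.3. Mcmdc2, of meiotic recombination, was dim in both.

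The widest spread within a role was among genes of DNA synthesis, where 3 of 4 measured genes passed 2-fold and did so in opposite directions. Pold1, the catalytic subunit of DNA polymerase delta, gave 126 in D16 and 28.7 in D351, 4.40-fold apart. Pold1 was read by 1 probe set, with the mark f. Dut, the dUTPase that keeps uracil out of DNA, gave 49.9 in D16 and 8.6 in D351. The ratio for Dut was 5.80-fold, and its D351 value lay within the range of background. Raising the floor to 20.7 left Dut at least 2.41-fold higher in D16.

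Pclaf, a small protein that binds PCNA and is known as a gene of S phase, went against these. Its probe set read 3.7 in D16, below the floor, and 146 in D351. The bound was 22.9-fold with the floor at 6.4 and 7.07-fold with the floor at 20.7, and by the former Pclaf ranked 12 of 3934 measured genes towards D351. Pclaf was read by 1 probe set, with the mark i in its identifier. Primpol, a primase that restarts stalled forks, read 27.7 in D16 and 32.3 in D351. Poldip3, a member by its name only, was dim in both. Pold1 and Pclaf thus lay on opposite sides although both have E2F words at their starts, as printed above.

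**Figure D3:**
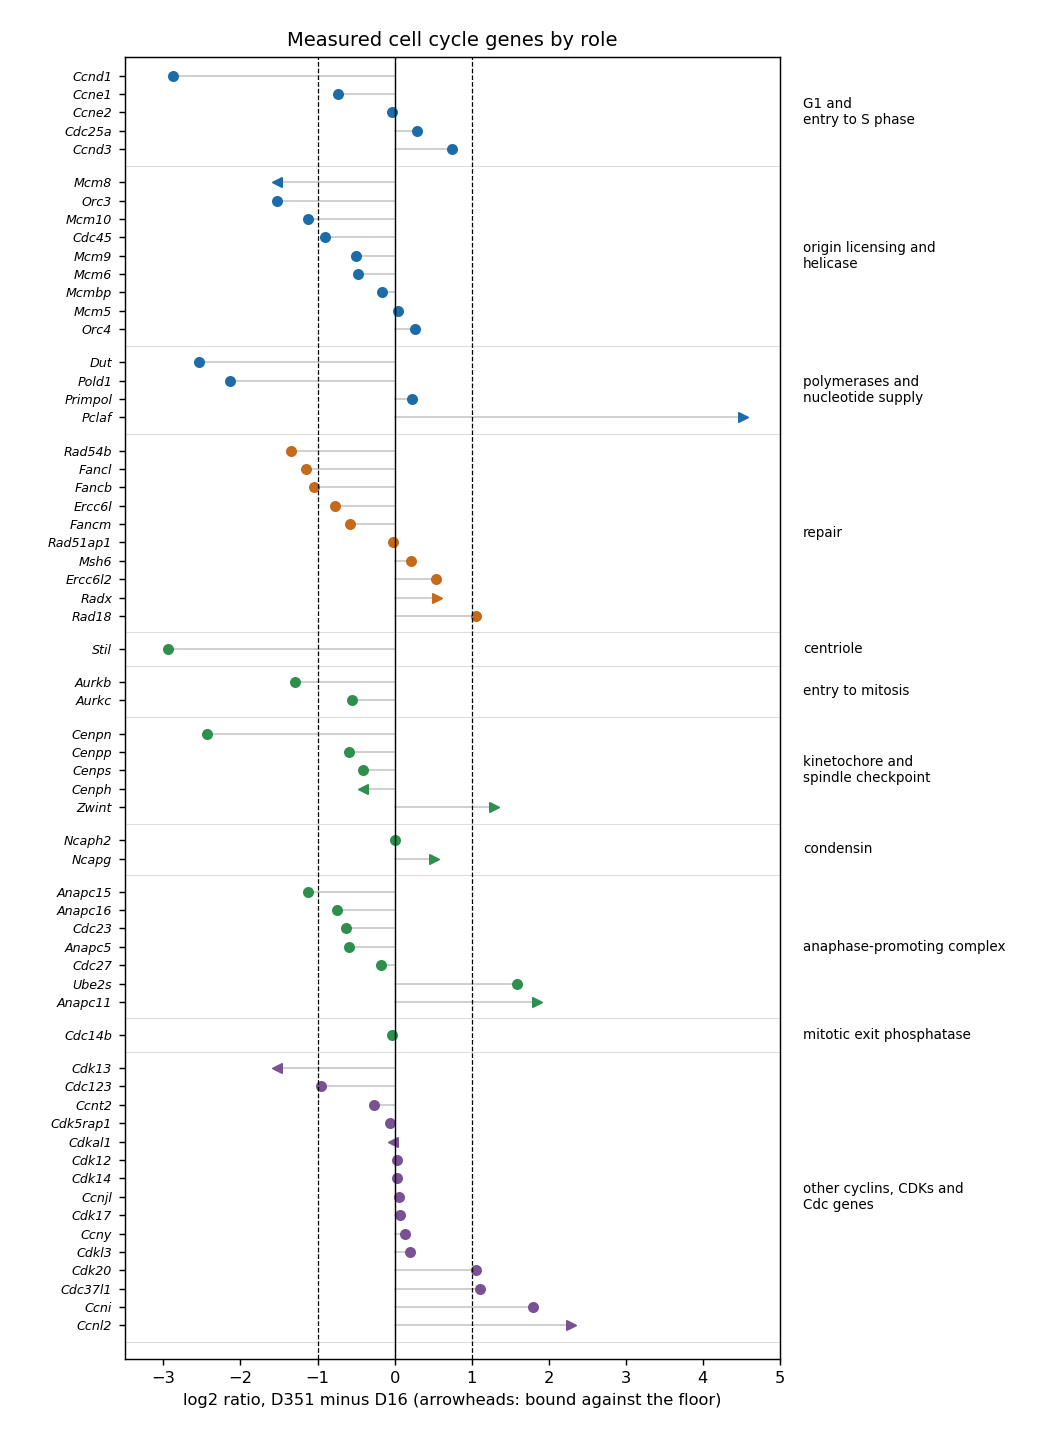
Log2 ratio (D351 minus D16) of each measured gene, 1 row per gene, grouped by role and ordered by ratio within each group. Circles are genes above the floor in both clones, arrowheads are bounds, and dashed lines mark 2-fold. Blue marks G1 and replication, orange repair, green mitosis and purple the other cyclins, CDKs and Cdc genes. The blue, orange and green groups lean left but also hold genes past 2-fold on the right, namely Pclaf at a bound of 4.51, Rad18, Anapc11, Ube2s and Zwint.

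Repair genes that passed 2-fold towards D16 were Rad54b, Fancl and Fancb. Rad54b, a translocase of homologous recombination, gave 177 in D16 and 69.8 in D351, 2.53-fold apart, by 1 probe set with the mark i. Fancb and Fancl both belong to the Fanconi core complex, in which Fancl is the ubiquitin ligase. Fancb read 64.4 in D16 and 31.1 in D351, 2.07-fold apart and the smallest ratio to pass. Fancl read 14.8 in D16 and 6.7 in D351, the latter within the range of background. Fancm, the DNA-binding translocase of the same pathway, lay on the same side under 2-fold, at 33.6 and 22.6.

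Rad18, the ubiquitin ligase that modifies PCNA at damaged forks, was the repair gene past 2-fold towards D351, 2.08-fold higher there (52.0 in D16 and 108 in D351). Ercc6l, which despite its name is a mitotic helicase of ultrafine DNA bridges, read 49.2 in D16 and 28.8 in D351. Ercc6l2 read 51.8 in D16 and 75.1 in D351, and the mismatch repair gene Msh6 30.2 and 35. Rad51ap1, a factor of homologous recombination, was nearly equal at 109 and 107. Radx was dim in D16 at 2.3 and read 9.4 in D351, within the range of background. The remaining 7 repair genes (Ercc5, Fancd2, Fancg, Msh3, Msh4, Rad51d and Xrcc1) were dim in both clones, so that no ratio could be given.

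In mitosis, Stil, which builds new centrioles together with Plk4, had the largest ratio of any member measured in both clones. It gave 173 in D16 and 22.6 in D351, 7.66-fold apart, and was read by 1 probe set with the mark r. Of the kinases, Aurkb, the catalytic subunit of the chromosomal passenger complex, gave 65.6 in D16 and 26.7 in D351, 2.46-fold. Aurkc, its close relative best known from germ cells, read 98.6 in D16 and 67.4 in D351. The Aurkb probe set carries the mark f, for sequence shared within a gene family, so signal from a relative cannot be told apart. Plk5 was dim in both.

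Of 5 measured kinetochore genes, 4 (80%) lay below 0 by their brightest probe sets, where 51.0% of all measured genes did. Cenpn, which binds the centromeric nucleosome, gave 44.4 in D16 and 8.2 in D351, 5.41-fold, with the D351 value within the range of background. Cenpn was read by 1 probe set, with the mark i. Against the floor of 20.7 its excess in D16 was at least 2.14-fold. Cenpp read 45.2 in D16 and 30.1 in D351, and Cenps 10 and 7.5. Cenph was 8.5 in D16 and dim in D351 at 5.5. All 4 Cenp genes thus lay below 0, and 1 passed 2-fold, but no value of Cenps or Cenph exceeded the range of background. The probe sets of Zwint, a part of the outer kinetochore, contradicted each other. The brighter was dim in D16 at 4.3 and read 15.7 in D351, at least 2.45-fold higher in D351, while the other gave 14.6 in D16 but was dim in D351 at 4.2. Zwint is counted towards D351 by the first, and these values give it no settled direction.

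Of the anaphase-promoting complex, the ubiquitin ligase that ends mitosis, and its E2 enzyme, all 7 genes were measured. By their brightest probe sets, 5 (71.4%) lay below 0, against 51.0% of all measured genes. Anapc15, which takes part in turning over the spindle checkpoint complex, was 2.18-fold higher in D16 by its brightest probe set (139 against 63.7). A second read 20.9 in D16 and 16.2 in D351, but the remaining measured one gave 7.1 in D16 and 15.5 in D351. The scaffold subunit gene Anapc5 gave 484 in D16 and 323 in D351 and, by a second probe set, 49.6 and 34.4, ratios of -0.59 and -0.53. Anapc16 read 19.5 in D16 and 11.6 in D351, and Cdc23 and Cdc27, of the TPR arm, 63.4 against 41.0 and 82.5 against 72.9. Second probe sets of Cdc23 (17.2 in D16 and 22.3 in D351) and Cdc27 (23.8 and 31.8) lay the other way.

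A pair of genes on the catalytic side of the same ligase lay towards D351. Anapc11, the RING subunit, was dim in D16 at 1.1 and read 23.1 in D351, at least 3.61-fold higher. Ube2s, the E2 enzyme that extends ubiquitin chains on its substrates, read 8.3 in D16 and 24.9 in D351, 3-fold. Both were read by marked probe sets, and neither passed 2-fold with the floor at 20.7, where they were at least 1.12-fold and 1.2-fold higher. Of condensin, which compacts chromosomes, Ncaph2 was equal at 24.7 and 24.8. Ncapg was dim in D16 at 6.1 and 9.1 in D351, within the range of background, and Ncaph was dim in both. Cdc14b, a phosphatase of mitotic exit, was nearly equal at 48.3 and 47.0.

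Of the 15 measured genes in the group of other cyclins, CDKs and Cdc genes, 10 were under 2-fold and 4 passed it towards D351. Ccnl2, a cyclin of splicing factor kinases, was dim in D16 at 3.6 and read 31.2 in D351, at least 4.88-fold higher. Ccni, an atypical cyclin of non-dividing tissues such as neurons, gave 16.3 in D16 and 56.7 in D351, 3.48-fold, and the bound against the floor of 20.7 was 2.74-fold. Cdk20, a kinase that also acts on cilia, read 22.4 in D16 and 46.6 in D351, 2.08-fold. Cdc37l1, an Hsp90 co-chaperone, read 14.0 in D16 and 30.2 in D351, 2.16-fold. The brightest probe sets of all 4 had no mark. Marked probe sets of Ccni (2.7 in D16 and 0.2 in D351) and Cdc37l1 (3.0 and 2.1, and 0.4 and 0.9) were dim in both clones.

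In the other direction, Cdk13, a kinase of RNA polymerase II, gave 18.5 in D16 and was dim in D351 at 3.2, at least 2.89-fold higher in D16. Its close relative Cdk12, which shares cyclin K, was equal at 218 and 222 by its brightest probe set. Cdc123, an assembly factor for translation initiation factor eIF2, was just under 2-fold, at 199 in D16 and 103 in D351. Cdk14, a membrane-linked kinase of Wnt signalling, was equal at 605 and 621. The other measured genes (Ccnjl, Ccnt2, Ccny, Cdk17, Cdk5rap1, Cdkal1 and Cdkl3) had brightest-probe-set ratios between -0.27 and 0.19. Ccnq and Cdkl2 were dim in both.

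Just past the 2-fold line were Fancb (2.07-fold), Cdk20 and Rad18 (both 2.08-fold), and just short of it were Cdc123 (1.93-fold) and Cdc45 (1.88-fold). The gaps between these ratios are far smaller than the SD of 0.67 log2 between probe sets of a gene.

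Of the 61 measured genes, 12 had more than 1 measured probe set. In 6 of these 12 all measured probe sets lay on the same side of 0, and in the other 6 they did not. Orc3, Mcm10, Anapc5, Ccne1, Cdc123 and Rad51ap1 kept to the D16 side, while Anapc15, Ccny, Cdc23, Cdc27, Cdk12 and Zwint crossed 0. Of the 23 genes past 2-fold, 14 were read by a single probe set, 12 were represented by a marked probe set and 4 had a second measured probe set (Anapc15, Mcm10, Orc3 and Zwint). No second probe set passed 2-fold in the same direction as the brightest, and with the mean over measured probe sets Anapc15, Mcm10 and Zwint no longer passed. Of the 23, 17 were above the floor on both arrays, and in 5 of these (Dut, Cenpn, Fancl, Mcm10 and Ube2s) the dimmer reading lay in the background range, under 11.2. A pseudocount in place of the floor ended the 2-fold call of Fancb, Fancl, Mcm10, Rad18, Cdk20 and Cdc37l1. With the floor at 20.7, 14 of the 23 still passed. Mcm8, Mcm10, Fancl, Cdk13 and Zwint were then dim in both clones, and Anapc11, Ube2s, Ccnl2 and Cdc37l1 fell short of 2-fold.

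**Figure D4:**
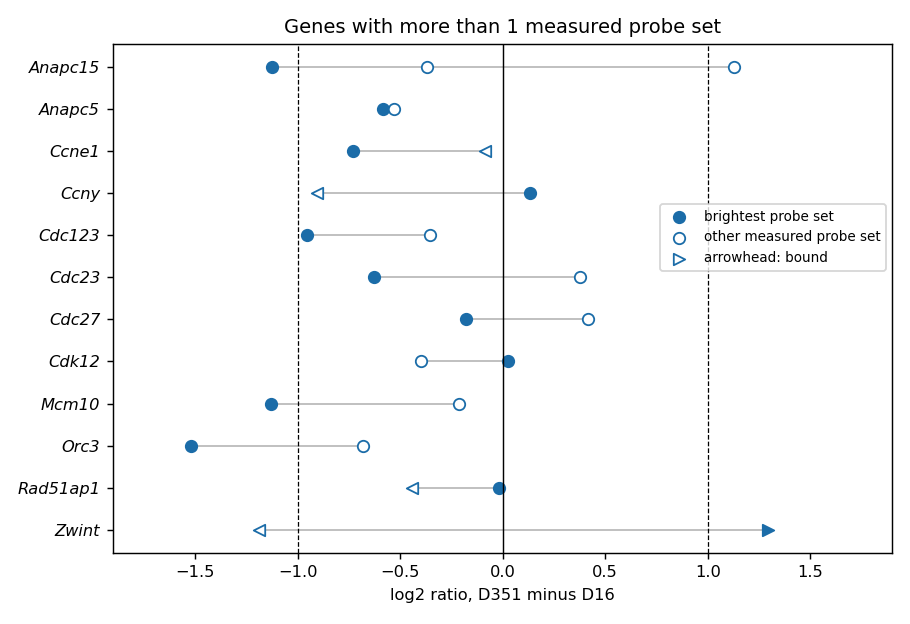
Log2 ratio (D351 minus D16) of every measured probe set of the 12 genes with more than 1, 1 row per gene. Filled symbols are the brightest probe set, open symbols the others, arrowheads bounds, and dashed lines mark 2-fold. Anapc15 spans -1.13 to 1.13 and Zwint -1.19 to 1.29, while both probe sets of Anapc5 lie close together.

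Using only probe sets without a mark, 30 members were measured, of which 7 (23.3%) passed 2-fold towards D16 and 4 (13.3%) towards D351. Of all genes measured in this way, 10.1% and 10.5% did. The median was -0.51 over the members and -0.0084 over all genes. The 7 were Ccnd1, Dut, Orc3, Mcm8, Mcm10, Fancb and Cdk13, and the 4 were Ccni, Ccnl2, Cdk20 and Cdc37l1. For mitosis no gene of the 6 measured in this way passed 2-fold, although all 6 lay below 0. Scaled to the hybridization controls, 7 of the 14 members kept a 2-fold excess in D16 (Ccnd1, Stil, Pold1, Dut, Cenpn, Mcm8 and Cdk13), and 11 members passed 2-fold towards D351. On that scale 60 members were measured, so 11.7% passed towards D16 and 18.3% towards D351, where 3.64% and 27.6% of all measured genes did.

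Further genes of the division cycle outside these families, from a list of 154 of which 49 were on the array, lay towards D16. This list too was drawn up with earlier results of these data known. Of 35 measured, 12 (34.3%) passed 2-fold towards D16 and 0 towards D351, against 10.2% and 10.3% of all measured genes. The median was -0.43, and 28 lay below 0. Over unmarked probe sets, 4 of 20 measured (20%) passed towards D16, against 10.1% of all genes. Scaled to the hybridization controls the counts were 2 (5.71%) and 4 (11.4%), where 3.64% and 27.6% of all genes passed, and the median was 0.23, or -0.35 relative to that of all genes. The 12 included outer kinetochore genes. Ska1 gave 202 in D16 and 36.8 in D351, and the partners Ndc80 and Nuf2 read 230.1 against 83.1 and 40.7 against 15.7, 2.77-fold and 2.59-fold. Genes of S phase among them were thymidine kinase Tk1 (276 in D16 and 114 in D351), the checkpoint mediator Clspn (55.4 and 15.0), the chromatin reader Uhrf1 (33.4 and 12.5) and Rif1 (47.3 and 18.6). The others were Skp2 (2.17-fold), Nusap1 (2.60-fold), Anln (2.61-fold), Kif22 (2.92-fold) and Cdca2 (3.13-fold), which serve the G1 to S transition, the spindle, cytokinesis and chromosomes. The D351 value of Cdca2, 6.7, lay within the range of background. Incenp, the partner of Aurkb, read 47.4 in D16 and 37.0 in D351.

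Markers of embryonic fibroblasts, the cells of the feeder layer, lay the other way from the replication genes. Of 17 listed, 5 were on the array and 4 were measured. All 4 were at least 2-fold higher in D351 (Col5a1, Fgf10, Loxl1 and Mfap5), where 10.3% of all measured genes were, and Col5a2 was dim in both. Their summed intensity was 655 in D16 and 2355 in D351. Most of it came from Col5a1, read by a marked probe set (543 and 1838). Smooth muscle markers moved with them, with 3 of 4 measured and all 3 towards D351. Their summed intensity was 33.9 in D16 and 413 in D351, of which Lmod1 gave 2.6 and 288. Of 10 mesoangioblast markers only Acta2 and Kdr were on the array. Both were dim in D16 (4.7 and 1.6) and read 15.4 and 9.5 in D351, so the labelled cell type could not be checked from these markers. The part of other cells, or of the share of dividing cells, in the differences above was not tested. In bulk RNA, fewer dividing cells and less RNA per cell cannot be told apart.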

How the data were processed

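Total RNA of 2 mesoangioblast clones was measured on 1 array each. The authors deposited 1 linear intensity per probe set, for which the sources used here name neither software nor scaling. Intensities were used as deposited. From 11934 probe sets, 66 controls were set aside. Of the other 11868, 7717 had a single gene in the platform annotation, 150 had several and 4001 were unnamed here. All 76 member genes matched RefSeq (GRCm38.p6) by gene identifier, under the same symbol. Values were raised to a floor of 6.4, log2 ratios were taken, the probe set with the highest mean represented its gene, and 2-fold was the rule of size. With 1 array per clone no test was made. The procedure was run on simulated arrays, which held changes larger than 2-fold in bright probe sets. Their noise was below the spread between probe sets of a gene. That run checks the code only and does not bear on how reliable the calls are. The members, lists and rules were chosen with earlier results of these data known. Every measured member was named. The marker lists also covered endothelium (3 of 7 on the array, with Flt1 towards D351 by at least 13.7-fold and Egfl7 towards D16 by at least 3.05-fold), blood (Itga2b, ratio 0.37) and cartilage (Sox9, ratio 0.070). Alternatives were other scalings (quantile, lowess with span 0.3, equal medians, hybridization controls), floors at the 25th and 75th percentile, a pseudocount, 3-fold, unmarked probe sets and means over probe sets, and, added after seeing the data, leaving out the 5 singly listed genes. Software was numpy 2.4.6, pandas 2.3.3, statsmodels 0.14.6 and matplotlib 3.10.9, run in Python 3.11.15.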

Additional observations from a re-analysis of the deposited data

How the results depend on the processing

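Quantile normalization, lowess centring and equal medians left all 23 named genes past 2-fold in the same direction. Relative to the reported counts of 14 members towards D16 and 9 towards D351, a count moved by more than 1.5 times under 4 settings. Scaled to the hybridization controls, 7 members (11.7%, against 3.64% of all genes) were towards D16. The median of the members turned to 0.50, with that of all genes at 0.59. With a 3-fold rule 5 (8.20%) were towards D16 and 5 (8.20%) towards D351, where 3.56% and 4.58% of all genes were. Over unmarked probe sets 7 (23.3%) and 4 (13.3%) of 30 were, with a median of -0.51, where 10.1% and 10.5% of all genes were. These shares are close to the 23.0% and 14.8% of the reported counts. With the floor at 20.7, 4 of 44 (9.09%) were towards D351, against 7.91% of all genes, and the median was -0.035. Without the 5 singly listed genes, an alternative chosen after seeing the data, replication had 0 and mitosis 1 towards D351. Within role groups the counts are small. Scaled to the hybridization controls, replication had 2 towards D351, repair 0 towards D16 and 2 towards D351, and mitosis 2 towards D16. With 3-fold, replication had 3, repair 0, mitosis 2 and the other cyclins and CDKs 0 towards D16, while towards D351 repair had 0 and the other cyclins and CDKs 2. Over unmarked probe sets, mitosis had 0 in either direction, replication 0 towards D351, and repair 1 towards D16 and 0 towards D351. With the floor at the 25th percentile, 1.8, repair had 5 towards D16 and 2 towards D351 and the other cyclins and CDKs 2 towards D16. With the floor at 20.7, mitosis had 0 towards D351, and the other cyclins and CDKs had 0 towards D16 and 2 towards D351. With a pseudocount, repair had 1 towards D16 and 0 towards D351, and the other cyclins and CDKs 2 towards D351. For the further cell cycle genes, the counts were 2 and 4 towards D16 and D351 with the hybridization controls, 3 towards D16 with 3-fold, 4 towards D16 over unmarked probe sets and 1 towards D351 with the lower floor. Among the 190 values of single genes under these settings, 177 moved by less than 0.674 log2, the SD between probe sets of a gene, 13 moved by more and 0 changed sign. These values leave out genes no longer measured. Of the 23 named genes, 18 were still measured with the floor at 20.7 and 11 over unmarked probe sets. With the hybridization controls, 17 of the 23 named genes moved by the shift of that scaling, 0.673 log2, only just under this limit. All 23 were chosen as 2-fold or more apart, so a shift of this size could not change a sign. Nor can a changed floor or a pseudocount reverse the sign of a given probe set. The count of 0 sign changes therefore says little on whether the directions are stable. The cause of the changes under these settings was not tested, except that a higher floor and the removal of marked probe sets leave fewer genes measured. No replicate was left out, since each clone had 1 array.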
